A study of Xenopus laevis with 111 samples.

Results

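The question here is whether the response of the *Xenopus laevis* spinal cord to transection was still moving between 16 to 18 h and 19 to 21 h after surgery. It was asked within S6, a series of mRNA-seq libraries from a single batch of tadpoles, by comparing the injury difference (the transected library minus the sham library of the same hour) of the later hours with that of the earlier hours. The members are the 12 libraries that the labels place in S6 or S6', 6 transected and 6 sham, out of 111 libraries in all and 105 in the time series. They form 6 pairs, 3 at 16 to 18 h and 3 at 19 to 21 h. Transected animals had the dorsal skin and muscle opened and the spinal cord cut, and sham animals had the same opening with the cord left whole. All were tadpoles of NF stage 50, a stage that regenerates the cord, and the labels give no other treatment. Each library was made from the caudal part of the cord of 12 animals pooled, so 1 library is 1 pool and not 1 animal. No hour was repeated within S6. The hours of an interval therefore stand in for replicates, and the p-values below measure only the spread between these pools.

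In tadpoles of this stage, cells lining the central canal of the cord divide after a transection and the cut is bridged by new tissue, whereas the capacity is lost as metamorphosis ends. The hours studied here follow the immediate wound response and precede the main period of this proliferation. Sham surgery serves to remove what the opening of skin and muscle alone does to the cord. In bulk tissue a lower level of an mRNA can mean less of it in each cell or fewer cells that carry it, and these cannot be told apart here.

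The libraries of 16 to 18 h held 18.8 to 33.5 M expected counts and those of 19 to 21 h held 15.8 to 20.7 M, so the earlier hours were measured somewhat more deeply. The share of counts in the 100 most abundant gene models was 15.2 to 19.7% in the 12 libraries. Rank correlations over gene models lay between 0.9889 and 0.9945 for libraries of the same surgery and between 0.977 and 0.9855 for the 6 pairs of the same hour, and no library repeated another. Gene models were named by a single field of the deposited identifiers (for example Xelaev18009995m.g), and what stands before it was not used. The field used carries no gene symbols, and 0 of 45099 matched the RefSeq table used. Gene functions and the markers of neurons, glia, blood, muscle or skin are therefore not analysed here, and the tissue label was not checked. Counts of near-identical gene copies, which are common in this allotetraploid species, are uncertain because reads that fit several copies are divided among them.

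Transection set a large part of the transcriptome apart from sham surgery in both intervals. Of 32328 gene models tested with edgeR's quasi-likelihood test and the pair as block, 6158 (19.0%) passed an adjusted p of 0.05 at 16 to 18 h, 3846 of them higher and 2312 lower after transection. At 19 to 21 h 7367 (22.8%) passed, 4453 higher and 2914 lower. The median size of the called differences was 0.55 on the log2 scale at the earlier hours and 0.57 at the later hours, and 1033 and 1290 of the calls reached a log2 difference of 1. The numbers of calls rest on 3 pairs each and moved when a pair was left out. At 16 to 18 h they were 3150, 3831 and 3173 without the 16, 17 and 18 h pair, and at 19 to 21 h they were 4104 without the 19 h pair. Without the 20 h pair they were 9219 at the earlier and 8442 at the later hours, and without the 21 h pair 7158 and 6350. Which interval had more calls thus depended on the pairs included.

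The gene models called at the earlier hours were for the most part those called at the later hours, and in the same direction. In both intervals 4827 were called, which is 78.4% of the earlier and 65.5% of the later calls, and 4827 of the 4827 had the same sign, 3163 higher and 1664 lower after transection. The remaining 1331 calls of 16 to 18 h had the same sign at 19 to 21 h in 93.8% of cases, and the remaining 2540 calls of 19 to 21 h had the same sign at 16 to 18 h in 95.4%, against 76.7% over all gene models tested. An unadjusted p under 0.05 for the change itself was found in edgeR's test for 158 of the 1331 (11.9%) and 379 of the 2540 (14.9%). Over all gene models tested the share was 3.63%, and 0 of them passed the adjustment. The 1331 and the 2540 were chosen by a call in only 1 interval of the same fit. That choice favours a low p for the change, so these shares are not separate support for one. A log2 difference of at least 1 in both intervals was found for 591 gene models that were higher and 143 that were lower, and of at least 2 for 113 and 11.

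**Figure D1:**
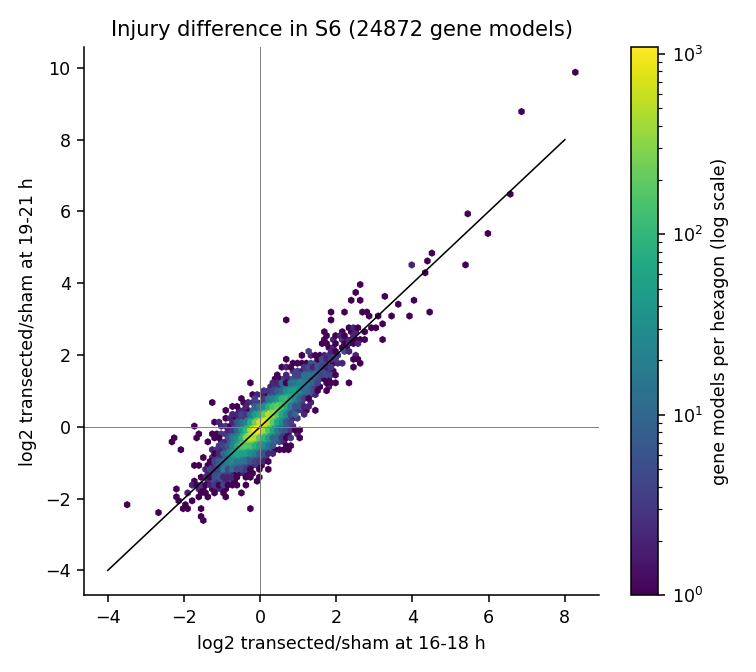
Injury difference of each gene model with a mean of at least 1 CPM over the 12 libraries (24872 gene models), as the fitted log2 ratio of transected to sham at 16 to 18 h (horizontal axis) and at 19 to 21 h (vertical axis); colour gives the number of gene models per hexagon on a log scale and the black line marks equal values. The cloud follows the line, and the 506 of these gene models that were called with a log2 difference of at least 1 in both intervals lie in the upper right.

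The direct test of the change found no gene model whose injury difference moved between the intervals. In edgeR's quasi-likelihood test of the interaction of surgery and interval, with the pair as block, 0 of 32328 gene models (0%) had an adjusted p under 0.05, and the smallest adjusted p was 0.454. An unadjusted p under 0.05 was found for 1172 (3.63%), with a higher ratio at the later hours in 528 and a lower one in 644. DESeq2 called 0 with 389 at an unadjusted p under 0.05, and limma voom called 0 with 1203. Without the pair block edgeR called 0 with 1053, and with hour as a number in place of the 2 intervals it called 0 with 1174. The count was not 0 in every setting. It was 1 without the 19 h pair, 140 without the 20 h pair and 59 with no filter on counts. With the mean transcript length of each library as a covariate it was 26. The 140 and the 26 are described below.

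The precision of this comparison differed with abundance. Among the 24872 gene models with a mean of at least 1 CPM (counts per M counted reads), the 95% interval of the change extended a median of 0.36 on the log2 scale to either side, a factor of 1.29. For 22424 of them (90.2%) the whole interval lay within 1 log2 unit of no change. The half-width was 0.31 for gene models between 10 and 100 CPM, where 99.6% of the intervals lay within that range, and 0.55 between 1 and 10 CPM, where 75.9% did. The interval was thus widest for scarce transcripts. A fitted change of at least 1 log2 unit was found for 77 gene models, of which 72 were between 1 and 10 CPM. In edgeR's test 64 of the 77 and 60 of the 72 had an unadjusted p under 0.05, and 0 passed the adjustment. A choice by a large fitted change favours a low p, so these counts are not separate support for a change.

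Among the 4711 gene models called in both intervals with at least 1 CPM, the change was under 0.5 log2 units in size for 4580 (97.2%). The median absolute change was 0.106 for the 4711 and 0.117 for all 24872, so a small change was not particular to them. A call in both intervals also favours a small change. Of the 4711, those higher after transection had a median difference of 0.60 in the earlier and 0.68 in the later interval. Those lower after transection had medians of -0.50 and -0.59. The difference lay farther from 0 at the later hours for 3240 of the 4711 (68.8%). The pair differences of all 24872 were also spread more widely at the later hours. Their lower quartiles were -0.205 to -0.217 in the earlier pairs and -0.244 to -0.29 in the later pairs. The upper quartiles were 0.225 to 0.301 and then 0.302 to 0.349. The share farther from 0 was not counted over the 24872, so whether the 68.8% is particular to the 4711 was not tested. Pair by pair, the spread of the 24872 differences within an interval overlapped that between intervals. The median absolute gap between a pair and another pair of the same interval was 0.162 to 0.339 over the 6 combinations, and 0.171 to 0.277 over the 9 combinations across intervals. The 20 h pair gave the widest gaps on both counts. Without it the gaps were 0.162 to 0.201 within and 0.171 to 0.222 across intervals.

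To follow the response with genes not chosen from S6 itself, 2 sets were taken from S5, a series from another batch of animals sampled up to 18 h. They hold the gene models with a log2 ratio of transected to sham of at least 1, or of -1 or less, in each of the 3 S5 pairs of 16 to 18 h and a mean of at least 1 CPM in those libraries. They are described with no test of a set as a whole. The raised set held 298 gene models. Its median log2 ratio in the S6 pairs was 1.53 at 16 h, 1.51 at 17 h, 1.74 at 18 h, 1.74 at 19 h, 1.80 at 20 h and 1.54 at 21 h. The values of the later hours overlapped those of the earlier hours, and the whole set stayed raised, with 298 of 298 above 0 in the mean of 16 to 18 h and 297 in the mean of 19 to 21 h. In the S6 fit 280 of them were called in the earlier interval and 287 in the later (94.0 and 96.3%, against 23.7 and 28.7% of all gene models of at least 1 CPM). The median change of the set was 0.11, with 194 of 298 above 0, against a median of 0.01 and 51.6% above 0 over the 24872. Without the 20 h pair the median was 0.07, with 178 above 0.

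The lowered set held 150 gene models, and its median injury difference was deeper at each of the later hours than at any of the earlier hours. Its median log2 ratio was -1.03 at 16 h, -0.96 at 17 h and -1.11 at 18 h, and then -1.32 at 19 h, -1.21 at 20 h and -1.29 at 21 h. The medians of the 2 intervals did not overlap in this set, whereas they did in the raised set. Single gene models of at least 1 CPM separated in either direction in 8.5% of cases, a share that is not a background for the median of a set. The medians of 18 h and 20 h lay closer together than those of 17 h and 18 h. For the change, 0 of all gene models tested (0%) were called, so no single member passed. An unadjusted p under 0.05 in edgeR's test of the change was found for 29 of the 150 (19.3%). In the raised set it was found for 37 of the 298 (12.4%), and over all gene models of at least 1 CPM for 3.8%. The members of a set share the same libraries, so they are not replicates of a change. The median change was -0.22, with quartiles of -0.41 and -0.03. It was above 0 for 32 of the 150 (21.3%), against 51.6% of all gene models of at least 1 CPM. The median change was -0.30 without the 20 h pair and -0.22 with the length covariate. Relative to the uninjured 0 h library of S6, a single library, the transected medians were -1.19, -1.13 and -1.19 at 16, 17 and 18 h and -1.26, -1.38 and -1.46 at 19, 20 and 21 h. The sham medians were -0.10, -0.24 and -0.08 and then 0.05, -0.16 and -0.15. The later transected values were thus all below the earlier ones, while those of the sham libraries overlapped. In S5 itself the same set, which was chosen at its 16 to 18 h, had medians of -0.68, -1.13 and -0.92 at 13, 14 and 15 h.

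**Figure D2:**
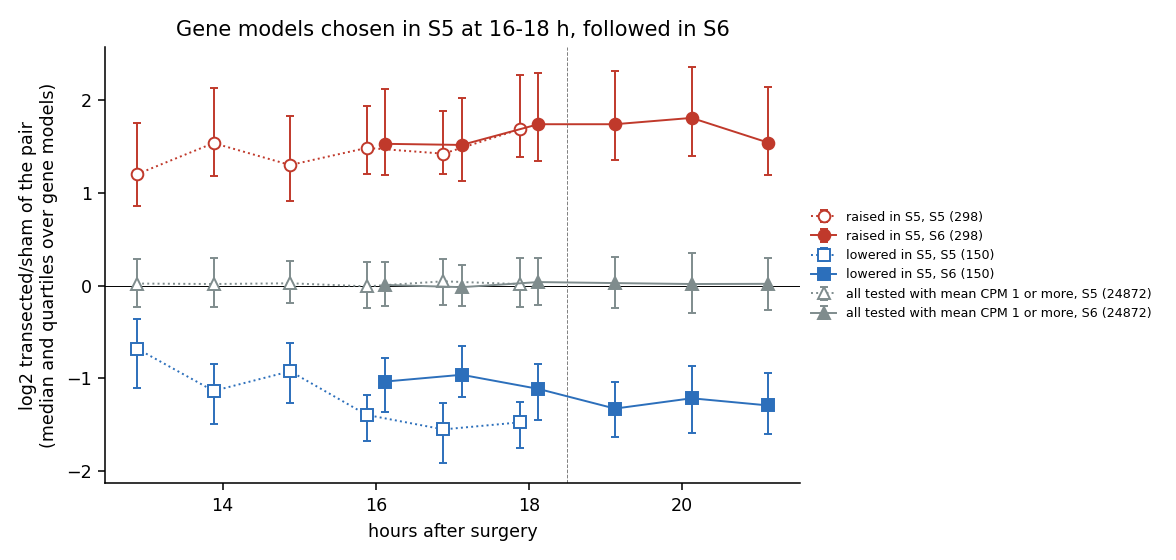
Log2 ratio of transected to sham in each same-hour pair (vertical axis) by hours after surgery (horizontal axis) for the gene models raised (298) or lowered (150) in S5 at 16 to 18 h and for all gene models of at least 1 CPM (24872); points are medians and bars are quartiles over gene models, open symbols are S5 pairs and filled symbols S6 pairs, and the dashed line parts the 2 intervals. The lowered set lies at -0.96 to -1.11 in S6 before the line and at -1.21 to -1.32 after it, whereas the raised set overlaps across the line.

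Within each arm, 0 gene models passed edgeR's test between 19 to 21 h and 16 to 18 h (0% in transected and 0% in sham animals), with 2143 and 1211 at an unadjusted p under 0.05. DESeq2 called 12 in transected and 2 in sham animals, and limma voom called 0 and 0 with 2208 and 1204 at an unadjusted p under 0.05. This comparison uses 4 group means without the pair, since the pair would absorb any change over hours. edgeR called 1 in transected animals without the 18 h or without the 19 h libraries and 1 in sham animals without the 18 h libraries, and 51 and 66 with the length covariate described below.

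As 0 gene models passed, the 4 given here are those with the smallest unadjusted p in each direction among those with at least 1 CPM and no overlap between the 3 earlier and the 3 later pair differences, and they do not pass the test. Such a separation was found for 2122 of the 24872 gene models (8.5%), 1145 in the positive and 977 in the negative direction, beside 0% called. Their annotation was not analysed here.

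Xelaev18039829m.g had the smallest p of all. In transected animals it measured 2.80, 1.37 and 2.12 CPM at 16, 17 and 18 h and 2.08, 7.50 and 1.35 CPM at 19, 20 and 21 h. In sham animals it measured 16.1, 5.17 and 10.3 CPM and then 5.12, 6.75 and 2.00 CPM. The transected libraries were low at every hour except 20 h, and the 3 sham libraries of 16 to 18 h were above the 3 transected ones, while those of 19 to 21 h overlapped with them. The log2 ratio of the pairs was -2.23 ± 0.31 (SD, n = 3) at 16 to 18 h and -0.57 ± 0.72 (SD, n = 3) at 19 to 21 h. The fitted change was 1.84 with a standard error of 0.32 (adjusted p = 0.454), and without the 20 h pair it was 1.30 (adjusted p = 0.0392). The level was not steady in other animals either: in S5 sham libraries it ranged from 0.577 to 127.5 CPM between 13 and 18 h, and in uninjured animals of S8 from 3.05 to 51.9 CPM between 16 and 21 h. The S5 pair ratio was 3.205, 0.416 and -2.639 at 13 to 15 h on the log2 scale. At 16 to 18 h it was 2.64, -2.642 and 0.818, so it did not keep one sign there.

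Xelaev18003389m.g had the next smallest p in the positive direction. In transected animals it measured 3.56, 1.02 and 3.56 CPM at 16, 17 and 18 h and 5.59, 8.46 and 1.86 CPM at 19, 20 and 21 h, and in sham animals 11.9, 5.21 and 8.62 CPM and then 7.05, 4.69 and 2.75 CPM. The earlier sham libraries were above the earlier transected ones, and the later libraries of both groups overlapped. The pair ratio was -1.78 ± 0.53 (SD, n = 3) and then -0.02 ± 0.76 (SD, n = 3) on the log2 scale. The fitted change was 1.77 with a standard error of 0.33 (adjusted p = 0.454). It was 1.26 without the 20 h pair (adjusted p = 0.0181). In S5 its highest and lowest sham values were 141.2 CPM at 15 h and 2.03 CPM at 14 h, and both gene models were highest in the same sham library of S5 and in the same uninjured library of S8, that of 19 h. The S5 pair ratio of Xelaev18003389m.g was 1.62, 0.818 and -3.832 at 13 to 15 h on the log2 scale. At 16 to 18 h it was 2.054, -2.159 and 0.67, again without one sign.

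Xelaev18009995m.g was lower after transection throughout, and by more at the later hours. In transected animals it measured 27.8, 31.2 and 28.0 CPM at 16, 17 and 18 h and 26.6, 21.8 and 22.8 CPM at 19, 20 and 21 h. In sham animals it measured 56.2, 43.7 and 45.8 CPM and then 72.1, 74.0 and 64.0 CPM. Each group was thus separated between the intervals, transected downwards and sham upwards. The pair ratio was -0.74 ± 0.26 (SD, n = 3) at 16 to 18 h and -1.56 ± 0.17 (SD, n = 3) at 19 to 21 h on the log2 scale. The fitted change was -0.82 with a standard error of 0.15 (adjusted p = 0.454), its 95% interval ran from -1.14 to -0.50, and without the 20 h pair it was -0.73 (adjusted p = 0.00384). Per transcript length it was the most abundant of the 4, at 80.5 ± 7.7 TPM (SD, n = 3) in transected and 125.9 ± 20.1 TPM (SD, n = 3) in sham libraries of 16 to 18 h. In S5 the pair ratio was -0.77, -1.27 and -0.11 at 13 to 15 h and -1.51, -1.98 and -1.11 at 16 to 18 h. In uninjured animals of S8 it was 17.2 ± 1.62 CPM (SD, n = 3) at 16 to 18 h and 21.4 ± 8.72 CPM (SD, n = 3) at 19 to 21 h.

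Xelaev18005146m.g was above sham at the earlier hours and mostly below it at the later hours. In transected animals it measured 18.1, 16.7 and 18.4 CPM at 16, 17 and 18 h and 15.5, 17.3 and 12.9 CPM at 19, 20 and 21 h, and in sham animals 13.3, 12.3 and 13.9 CPM and then 24.5, 16.5 and 17.4 CPM. The later sham libraries were all above the earlier ones, while the transected ones overlapped. The pair ratio was 0.43 ± 0.03 (SD, n = 3) and then -0.34 ± 0.37 (SD, n = 3) on the log2 scale, with 20 h alone above 0 at the later hours. The fitted change was -0.77 with a standard error of 0.17 (adjusted p = 1), and -0.99 without the 20 h pair (adjusted p = 0.00041). In S5 the pair ratio was 0.63, 0.30 and 0.67 at 13 to 15 h and -0.002, -0.31 and 0.57 at 16 to 18 h.

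**Figure D3:**
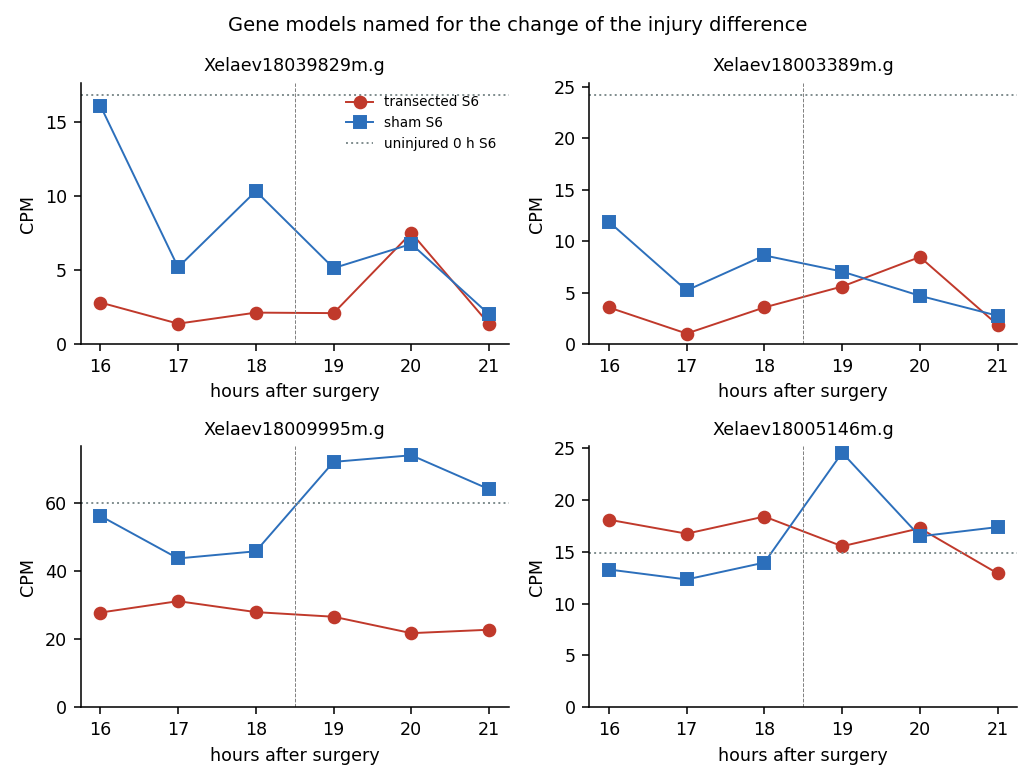
Level in CPM (vertical axes, from 0) of the 4 named gene models by hours after surgery (horizontal axes) in transected (red circles) and sham (blue squares) libraries of S6, 1 library per point; the dotted line is the uninjured 0 h library of S6 and the dashed line parts the 2 intervals. The sham levels of Xelaev18009995m.g sit at 43.7 to 56.2 CPM before the dashed line and at 64.0 to 74.0 CPM after it, and none of the 4 passed the test of the change.

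The pairs differed in the length of the transcripts that their libraries sampled, and the 20 h and 21 h pairs lay farthest apart. The mean effective transcript length of a library, weighted by abundance, was 1835 bases in the transected and 1788 in the sham library at 16 h, 1828 and 1839 at 17 h, and 1767 and 1637 at 18 h. At the later hours it was 1706 and 1595 at 19 h, 1642 and 1758 at 20 h, and 1842 and 1626 at 21 h. The transected library sampled longer transcripts than its sham library in 4 of the 6 pairs, by 216 bases at 21 h. The difference went the other way at 17 h, with -11 bases, and at 20 h, with -116 bases. Gene by gene the same order was seen. Over the 21459 gene models with a measurable effective length, the median log2 ratio of the longest length quartile minus that of the shortest was 0.07, -0.06, 0.09, 0.08, -0.35 and 0.23 at 16, 17, 18, 19, 20 and 21 h. Short gene models were thus relatively higher in the transected library at 20 h and relatively lower at 21 h, and the 2 pairs that lay farthest apart in this respect belonged to the same interval.

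**Figure D4:**
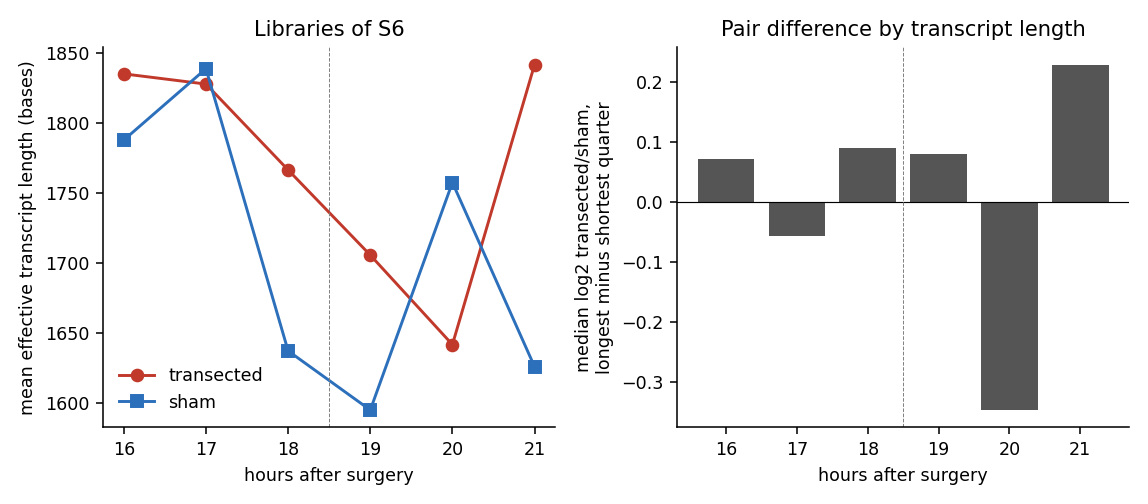
Left, mean effective transcript length in bases (vertical axis, not starting at 0) of each S6 library by hours after surgery, transected as red circles and sham as blue squares; right, bars of the median log2 ratio of transected to sham in the longest length quartile minus that in the shortest, per pair (21459 gene models). The bar at 20 h reaches -0.35 and that at 21 h 0.23, the other pairs lie between -0.06 and 0.09.

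The length imbalance between the intervals depended on which pairs were included. The longest minus the shortest quartile averaged 0.04 over 16 to 18 h and -0.01 over 19 to 21 h, and 0.15 over 19 and 21 h alone. Of the later pairs, that of 19 h had 0.08, that of 20 h -0.35 and that of 21 h 0.23. Calls for the change were made with length in the fit and, separately, when the 20 h pair was left out, a setting that widens this imbalance. Leaving out the 21 h pair shifts the imbalance as well, and 0 gene models were called for the change in that setting. With the mean effective length as a covariate, edgeR called 26 gene models for the change (0.0804% of 32328), 7 with a higher ratio at the later hours and 19 with a lower one, and the square root of the common dispersion went from 0.096 to 0.0648. Without the 20 h pair it called 140 (0.433%), 18 more positive and 122 more negative. The 2 settings shared 20 gene models, all with the same sign, which is 76.9% of the 26 and 14.3% of the 140. Both settings fit the same contrast to libraries of S6 that they largely share, so this overlap is not separate support for a change. The 4 named gene models, which were picked by the smallest p of this same contrast, were called in both.

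The 122 gene models with a more negative difference without the 20 h pair were short, with a median effective length of 1065 bases against 2808 over all gene models of at least 1 CPM. Their median pair ratios were -0.15, -0.07 and -0.34 at 16, 17 and 18 h, -0.91 at 19 h, 0.01 at 20 h and -0.88 at 21 h on the log2 scale. At 20 h, the pair that the setting leaves out, the ratio was closer to the mean of the earlier hours than to that of 19 and 21 h for 111 of the 122. This was so for 14891 of the 24872 gene models of at least 1 CPM. Calling without this pair favours such gene models, so the count of 111 follows in part from the choice. With all 6 pairs 62 of the 122 had an unadjusted p under 0.05 in edgeR's test, against 3.8% of all gene models of at least 1 CPM. The intervals were without overlap for 19 of the 122 (15.6%, against 8.5%). As the 122 were chosen by this same contrast over the other pairs, these values are not separate support for a change. The mean level was higher at the later than at the earlier hours for 115 of the 122 in sham animals (median log2 difference 0.34) and for 31 in transected animals (median -0.14). Over the 24872 the counts were 12686 in sham and 12910 in transected animals. A choice by a more negative difference favours higher sham and lower transected levels at the later hours. In uninjured animals of S8 106 of the 122 were higher at 19 to 21 h than at 16 to 18 h (86.9%, against 53.1% of all), with a median of 0.23. In S5, whose hours differ, the pair ratio of 16 to 18 h minus that of 13 to 15 h was above 0 for 8 of the 122 (6.6%, against 51.9% of all), with a median of -0.56. The 18 with a more positive difference had medians of -0.27, -0.06 and 0.21 at the earlier hours and of 1.15, 0.54 and 1.09 at 19, 20 and 21 h. A higher mean sham level at the later hours was found for 0 of the 18, and their choice favours a lower one. The S5 value was above 0 for 15 of the 18, with a median of 0.34. The part of transcript length in these calls was not tested. The lengths sampled by the S5 and S8 libraries were not measured, so its part in their values was not tested either.

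The 19 gene models with a more negative difference under the covariate had a median effective length of 1811 bases and lay at 0.18, 0.01 and 0.08 at 16, 17 and 18 h and at -0.55, -0.83 and -0.43 at 19, 20 and 21 h. At 20 h the ratio was closer to the mean of the earlier hours than to that of 19 and 21 h for 9 of the 19, against 14891 of the 24872. The 20 h pair was among the later hours when the 19 were chosen, so this count follows in part from the choice. The intervals did not overlap for 10 of the 19 (52.6%, against 8.5% of all gene models), which were chosen by this same contrast. The mean sham level was higher at the later hours for 19 of the 19, with a median log2 difference of 0.40, and the transected level for 1 of them, with a median of -0.33. Over the 24872 these counts were 12686 and 12910. The choice by this contrast favours a higher sham and a lower transected level, so these counts follow in part from it. The 7 with a more positive difference had medians of -0.43, -0.06 and -0.27 and then 0.38, 1.25 and 0.73, and 7 of the 7, chosen in the same way, were without overlap. In S5 the ratio of 16 to 18 h minus that of 13 to 15 h was above 0 for 2 of the 19 and 5 of the 7, against 51.9% of all gene models, with medians of -0.56 and 0.63. In uninjured animals of S8 14 of the 19 and 3 of the 7 were higher at 19 to 21 h than at 16 to 18 h, against 53.1% of all. The part of transcript length in these S5 and S8 values was not tested.

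**Figure D5:**
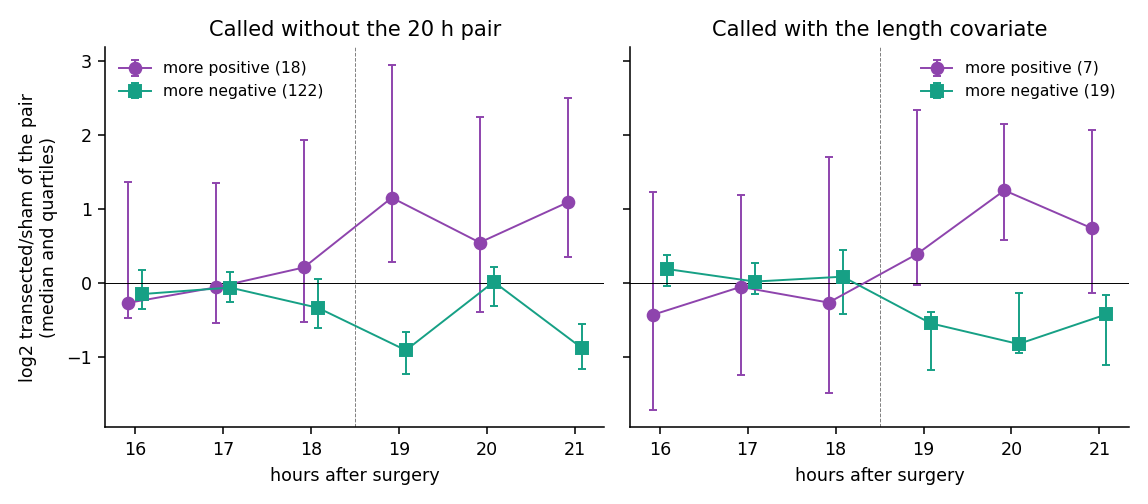
Log2 ratio of transected to sham in each S6 pair (vertical axis) by hours after surgery (horizontal axis) for the gene models called for the change without the 20 h pair (left, 18 more positive and 122 more negative) and with the length covariate (right, 7 and 19); points are medians and bars are quartiles over gene models, which were chosen by this same contrast. At 20 h, the pair left out in choosing the 122, these lie at 0.01. The 19, for which that pair was part of the choice, lie at -0.83 with an upper quartile of -0.14.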

How the data were processed

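The authors used Bowtie within RSEM to place paired-end reads of polyA+ libraries on transcript models of *X. laevis* (Xenbase release v9.1), and per the submitters' processing notes bases were called with CASAVA 1.7. The deposited expected counts are RSEM's estimates of reads per gene model, are not normalized and were rounded here to whole numbers. The deposited TPM values are scaled to transcript length and to the library total and were used only to give levels per length. The deposited FPKM values are scaled to transcript length and to the reads of the library, and unlike TPM their sum differs between libraries. The inverse of that sum, times a constant, gave the mean effective transcript length of a library, weighted by abundance.

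Gene models with at least 5 counts at 4 or more time points of 1 condition in the time series were kept (32328 of 45099), after the rule that the study states. An hour counted when any library of it in that condition reached the count, and the 0 h libraries were counted for both surgeries. The study reports fewer genes kept, and the gene set kept here was not compared with that of the study. The 12 libraries of S6 were fitted by edgeR 4.0.16 under R 4.3.3 with TMM scaling, its quasi-likelihood F-test and Benjamini-Hochberg adjustment, with terms for pair, surgery, and surgery by interval. Each arm was tested over 4 group means without the pair. Pairs are the transected and sham library of the same hour and animal batch. Their deviations from the group means correlated at -0.303 to 0.373, above 0.1 in 3 of 6 pairs, so the hour did not pair the libraries clearly, and the fit without the replicate block is given beside it. CPM and pair ratios came from TMM-scaled counts over 31 libraries (S6, S5 at 13 to 18 h and S8 at 16 to 21 h) with a prior count of 0.5 on the log2 scale. Effective lengths of gene models were taken where a library had at least 100 counts (21459 of 24872 gene models, 86.3%).

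Alternatives were the fit without block, RLE size factors, DESeq2 1.42.0, limma voom (limma 3.58.1), other filters, hour as a number, a required log2 change of 1 and leaving out each pair. The length covariate was chosen after seeing the data. The fit was tested on simulated data. The members and lists were chosen with earlier results of these data known. The named gene models follow a rule set for this comparison (adjusted p under 0.05, no overlap between intervals, at least 1 CPM, the 2 largest changes in each direction, filled by the smallest p where fewer pass). Lists of cell type markers by symbol were not used, since the field of the identifiers used here carries no symbols. The 6 libraries of the Torin1 experiment were not used here.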

Additional observations from a re-analysis of the deposited data

Results flagged for a closer look

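In 202 of the 24872 gene models of at least 1 CPM (0.812%), the 3 pair ratios of 16 to 18 h all had one sign and the 3 of 19 to 21 h all had the other. The ratio went from above to below sham in 108 of them and from below to above sham in 94. The change had a median size of 0.42 on the log2 scale, and in 0 of the 202 did the mean ratio reach 1 log2 unit in both intervals. An unadjusted p under 0.05 for the change was found for 104 by edgeR's quasi-likelihood test, and 0 passed the adjustment over all gene models. The share with such a p was 3.8% over all gene models of at least 1 CPM. As the 202 were chosen by the same pair ratios, the count of 104 follows in part from the choice. Groups of 3 libraries are too small for a test of single libraries that stand apart.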

How the results depend on the processing

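The count of 0 gene models called for the change held without the replicate block (0), with RLE size factors, DESeq2, limma voom, filterByExpr, hour as a number and a required log2 change of at least 1. It was 59 with no filter, and 58 of the 59 were among those tested in the report. It was 26 with the length covariate and 0 to 140 on leaving out 1 pair (140 without the 20 h pair). The median degrees of freedom of the test were 16.5 in the report, 939.8 with no filter, 25.2 with the covariate and 36.3 without the 20 h pair. The counts at 16 to 18 h and at 19 to 21 h were 5969 and 7192 without the block, and in the paired fit ranged from 3150 to 9219 and from 4104 to 8442 on leaving out 1 pair. For the transected and the sham arm, DESeq2 called 12 and 2, no filter gave 10 and 12, the length covariate gave 51 and 66, and leaving out 1 hour gave 0 to 1 in each. The other settings moved these counts by less than 1.5 times. The direction of the 4 named gene models held in all 13 alternatives run for each, and their calls changed with no filter, the covariate and without the 20 h pair, and for Xelaev18039829m.g also without the 19 h pair. The fit by hour gives a slope and was not set beside these values. The cause of these shifts was not tested. Depth limits gene models under 10 CPM most, and S6 has no second batch of animals at 19 to 21 h.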
